A study of Mus musculus with 69 samples.

Results

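A set of 10 immediate early genes was followed in the lungs of mice that had received titanium dioxide nanoparticles. They were the AP-1 factors Fos, Fosb, Jun and Junb, the stress factor Atf3, the zinc finger factors Egr1 and Egr2, the nuclear receptor Nr4a1, the nuclear protein Ier2 and the MAP kinase phosphatase Dusp1. The genes were chosen by symbol, with earlier results of the same arrays known, and each was found through the transcript accession of its probes. All 10 of 10 genes were among the 17627 genes tested, through 11 probes, of which Junb had 2. The RNA came from pieces of whole lung, and marker genes of alveolar, endothelial and immune cells were detected on 69 of 69 arrays.

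The study profiled 69 female C57BL/6 mice, 1 mouse per 2-colour array. The mice were 5 to 7 weeks old on arrival and acclimatised for 1 to 3 weeks. Each received 1 instillation of particles or vehicle into the trachea, at a dose of 18, 54 or 162 µg, and the lungs were taken on day 1 or on day 28. NRCWE-001 is the unmodified particle without surface charge and NRCWE-002 is its modified, positively charged counterpart, so the design sets the charged against the uncharged particle at matched doses. There were 14 groups of 5 mice, except the vehicle group of day 28 with 4. The vehicle was water with 2% serum per the design text, whereas the titles of the vehicle arrays name water alone. All groups shared strain, sex and route of exposure. Each value below is a log2 ratio of the RNA of the mouse (Cy5) to a commercial mouse reference RNA (Cy3), as deposited by the authors. A difference of 1 on this scale is a 2-fold difference.

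The scanner software found 61.4% to 87.8% of probes well above background in the mouse channel of an array, and 0 spots were saturated. The median correlation of an array with all others was 0.873 to 0.967 for 62 arrays. It was 0.827 to 0.878 for the 3 arrays of slide 4, which held replicate 2 of the NRCWE-002 groups of day 28 at 18, 54 and 162 µg. It was 0.898 to 0.921 for the 4 arrays of slide 6, which held replicate 1 of the NRCWE-001 groups of day 28 and replicate 2 of the vehicle group of day 28. The leading differences of day 28 are given with and without them.

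Immediate early genes are transcribed within minutes of a stimulus, without new protein synthesis, through factors such as CREB and the serum response factor that are already in the nucleus and are activated by kinases. Their mRNAs are short-lived, so their level follows recent signalling rather than lasting cell state. The AP-1 and EGR proteins carry the signal on to later genes, whereas Dusp1 dephosphorylates MAP kinases and Nr4a1 and Atf3 restrain inflammatory transcription in macrophages and epithelium.

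The 250 bases before the transcription start are shown for the 3 genes that varied together most closely among those with an entry, Nr4a1, Dusp1 and Fos, and for Junb, the AP-1 gene that stood above the vehicle arrays most often on day 28. The sequences are from RefSeq, build GRCm38.p6, written 5′ to 3′ on the strand of the gene, and 8 of the 10 genes had an entry, Egr1 and Ier2 excepted. The windows are chr15:101266596-101266845 on the plus strand for Nr4a1, chr17:26508473-26508722 on the minus strand for Dusp1, chr12:85473640-85473889 on the plus strand for Fos and chr8:84978749-84978998 on the minus strand for Junb. Capitals mark matches on either strand to the cyclic AMP response element TGACGTCA and its half-site TGACG, to the EGR site GCGNGGGCG, to the TATA box TATAAA, and to the NF-kB and CArG sites, the last of which is bound by the serum response factor.
Nr4a1: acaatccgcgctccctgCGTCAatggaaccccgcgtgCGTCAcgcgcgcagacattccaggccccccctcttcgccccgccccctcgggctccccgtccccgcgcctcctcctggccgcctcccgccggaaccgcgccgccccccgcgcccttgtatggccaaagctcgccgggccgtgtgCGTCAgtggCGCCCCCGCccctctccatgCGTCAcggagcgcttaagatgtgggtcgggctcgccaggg
Dusp1: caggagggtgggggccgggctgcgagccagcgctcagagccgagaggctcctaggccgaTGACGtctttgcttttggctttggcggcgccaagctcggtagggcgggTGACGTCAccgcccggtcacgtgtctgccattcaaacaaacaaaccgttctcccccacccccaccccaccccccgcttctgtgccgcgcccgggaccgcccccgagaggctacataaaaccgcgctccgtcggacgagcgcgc
Fos: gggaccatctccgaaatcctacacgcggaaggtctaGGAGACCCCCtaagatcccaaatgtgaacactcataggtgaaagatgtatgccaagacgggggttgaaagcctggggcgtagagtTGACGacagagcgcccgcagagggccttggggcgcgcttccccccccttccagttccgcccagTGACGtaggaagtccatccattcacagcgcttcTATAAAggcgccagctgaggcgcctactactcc
Junb: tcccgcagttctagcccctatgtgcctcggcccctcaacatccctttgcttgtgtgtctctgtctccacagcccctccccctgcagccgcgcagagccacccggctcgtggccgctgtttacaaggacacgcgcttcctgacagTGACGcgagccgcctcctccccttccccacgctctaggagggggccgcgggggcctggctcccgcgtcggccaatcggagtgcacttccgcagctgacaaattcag
The half-site was added to the search after the sequences had been seen, and it overlaps the full element. Of 32851 windows of the same kind and length, 17.8%% held the half-site and 1.55% the full element. Nr4a1 had 4 half-sites, at 233, 213, 69 and 40 bases before the start, and 0.137% of windows had as many. Dusp1 had 3 half-sites, of which 2 lay in the full element at 143 bases before the start, and 0.688% of windows had as many. Fos had 2 half-sites, 129 and 66 bases before the start, and 3.9% of windows had as many. A TATA box stood 33 bases before the start of Fos, and 12.4% of windows held 1. Junb, Fosb and Atf3 had 1 half-site each and Jun had 0. A match to the AP-1 site TGANTCA, present in 6.75% of windows, was found in 0 of the 8 genes. The EGR site (4.7% of windows) was matched in Nr4a1 and Fosb, the NF-kB site (3.9%) in Fos and Fosb, and the CArG site (1.47%) in Egr2. These are matches of letters, and binding was not measured.

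The 10 genes differed widely in how much they varied between animals. All were well above background on 69 of 69 arrays. Fosb was the dimmest, with a median intensity of 153 in the mouse channel over a local background of 67. The next was Fos with 461. Being near the background, Fosb may vary more in the tissue than its small range and differences show, which was not tested. Nr4a1 spanned the widest range, from -1.35 to 2.40 or 13.5-fold, followed by Egr1 with 10.1-fold, Dusp1 with 7.75-fold and Fos with 7.10-fold. Atf3 spanned 5.05-fold, Egr2 3.50-fold, Junb 3.05-fold, Ier2 2.98-fold, Fosb 2.63-fold and Jun 2.18-fold. The same 4 genes led inside the groups, where the SD between mice of a group was 0.67 for Nr4a1, 0.64 for Dusp1, 0.59 for Egr1 and 0.50 for Fos, against a median of 0.18 over all genes. It was 0.24 for Jun and 0.26 for Fosb.

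Spots of 1 probe differed far less than the mice of a group. Fos, Jun and Egr2 were each printed in 10 spots per array, and the SD between those spots was 0.06, 0.05 and 0.08 (medians over arrays), whereas the SD between mice of a group was 0.50, 0.24 and 0.34. The 2 probes of Junb correlated at 0.96 over the arrays. A glass slide carried up to 4 arrays. Of the variation within groups, 19.1% lay between slides for Nr4a1, 20.3% for Junb, 21.5% for Atf3 and 24.5% for Dusp1, against a median of 54.6% over all genes. Means of few arrays differ between slides without any slide effect, so such a share starts above 0. That starting level was not computed. The share was 33.2% for Fos, 36.1% for Egr1, 43.5% for Jun, 53.7% for Egr2, 59.1% for Ier2 and 72.3% for Fosb.

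**Figure D1:**
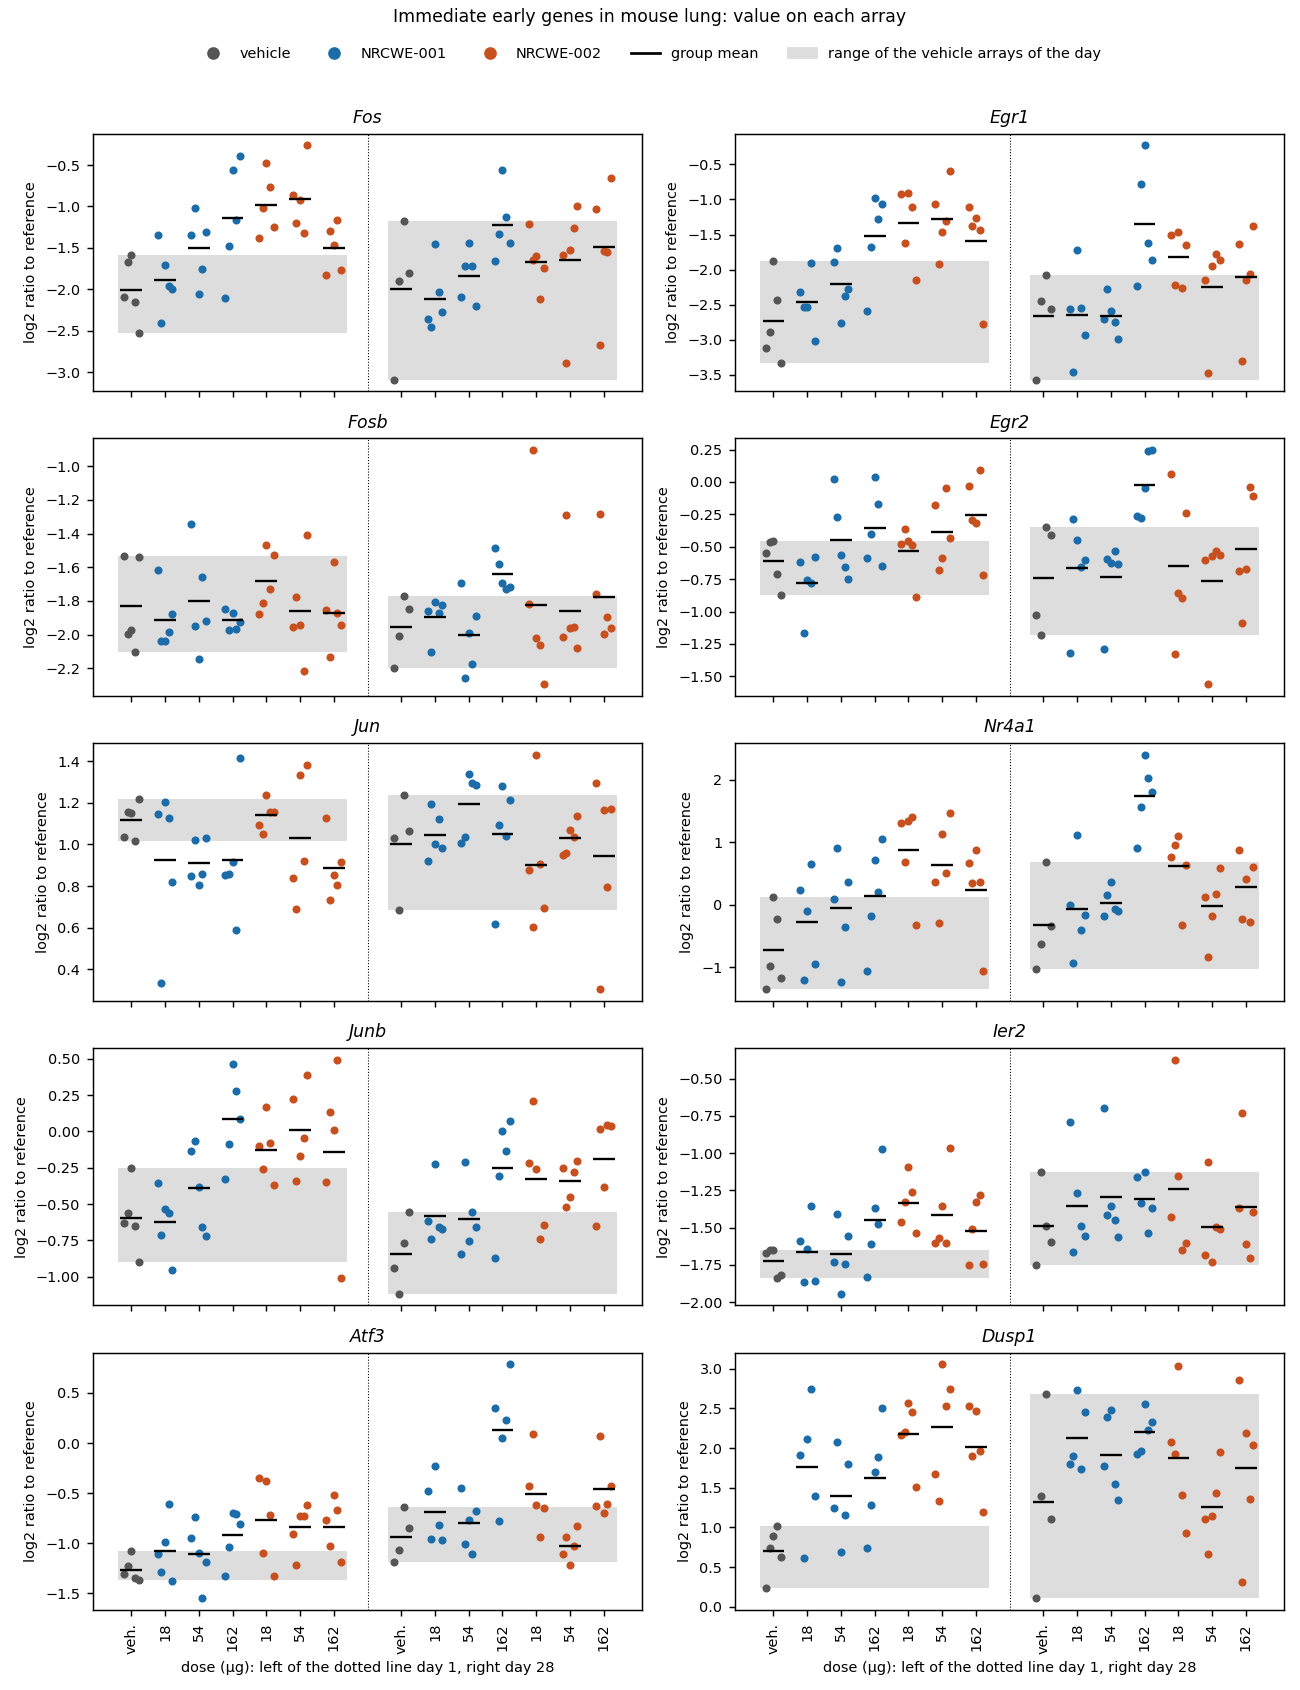
Log2 ratio to the reference RNA of each of the 10 genes (panels) on each of the 69 arrays, by dose in µg and day, with 1 point per mouse, a bar for the group mean and a band for the range of the vehicle mice of the same day. Nr4a1 at 162 µg of NRCWE-001 on day 28 lies above the band in 5 of 5 mice, and Dusp1 lies above it in 27 of 30 exposed mice on day 1.

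On day 1 after NRCWE-002, Dusp1, Fos, Egr1 and Nr4a1 had higher means than in vehicle lungs at each dose, and the other genes differed less. The comparisons of exposed mice with vehicle mice share the same vehicle arrays of their day, and the choice of the 10 genes used these contrasts, so the differences are given as descriptions with their standard error (SE). RNA of whole tissue was measured, so fewer cells of a type and less RNA per cell cannot be told apart.

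Dusp1, the phosphatase that ends MAP kinase signals, measured 0.23, 0.74, 0.89, 1.02 and 0.62 in the 5 vehicle mice of day 1. At 18 µg of NRCWE-002 it measured 2.17, 2.21, 2.57, 2.45 and 1.51. At 54 µg the values were 1.68, 1.33, 3.06, 2.54 and 2.75, and at 162 µg they were 2.54, 1.90, 2.47, 1.97 and 1.19. All 15 mice given NRCWE-002 thus lay above every vehicle mouse of that day. The mean differences were 1.48 ± 0.39, 1.57 ± 0.39 and 1.31 ± 0.39 (SE, n = 5 against 5), that is, 2.80-fold, 2.97-fold and 2.49-fold.

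Fos, the partner of Jun in AP-1, measured -2.09, -1.67, -1.58, -2.15 and -2.53 in the vehicle mice. It measured -1.38, -1.01, -0.47, -0.77 and -1.25 at 18 µg of NRCWE-002. It measured -0.87, -1.20, -0.92, -1.32 and -0.26 at 54 µg. Neither of these groups overlapped the vehicle mice, and the differences were 1.03 ± 0.31 and 1.09 ± 0.31. At 162 µg the Fos values of -1.83, -1.30, -1.47, -1.16 and -1.76 overlapped those of the vehicle mice, with a difference of 0.50 ± 0.31.

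Nr4a1, an orphan nuclear receptor induced by cyclic AMP and growth signals, measured -1.35, -0.98, 0.13, -0.22 and -1.17 in the vehicle mice of day 1. At 18 µg of NRCWE-002 it measured 1.31, 0.68, 1.34, 1.40 and -0.32. In 4 of 5 mice it was above all vehicle mice, and replicate 5 was inside their range. The mean differences were 1.60 ± 0.41 at 18 µg, 1.36 ± 0.41 at 54 µg and 0.96 ± 0.41 at 162 µg. Egr1, a growth-induced activator, gave 1.39 ± 0.36, 1.45 ± 0.36 and 1.14 ± 0.36 at the same doses, again with 4 of 5 mice above all vehicle mice at each dose.

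The smaller differences of day 1 were in Junb, Atf3 and Ier2. Junb differed by 0.47 ± 0.19, 0.61 ± 0.19 and 0.45 ± 0.19 at 18, 54 and 162 µg of NRCWE-002, and Atf3 by 0.49 ± 0.20, 0.43 ± 0.20 and 0.43 ± 0.20. Ier2 differed by 0.39 ± 0.18 at 18 µg and 0.31 ± 0.18 at 54 µg, and its 5 mice lay above all vehicle mice at both doses. The vehicle mice of day 1 were close together for Ier2, with an SD of 0.09, whereas the SD between mice of a group was 0.29. Jun and Fosb, the AP-1 partners of the genes above, gave differences of -0.23 to 0.02 and of -0.04 to 0.15. Egr2, the second zinc finger factor, gave 0.08 to 0.36.

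At an adjusted p under 0.05 in limma, 0 of the 10 genes were called at 18, 54 or 162 µg of NRCWE-002 on day 1, where 0%, 0.113% and 0.59% of all genes were called. At an unadjusted p under 0.05 the counts were 7, 6 and 5 of 10, beside 4.16%, 6.75% and 9.36% of all genes. The groups did not overlap for 3 genes at 18 µg (Fos, Ier2 and Dusp1, beside 2.38% of all genes), for the same 3 genes at 54 µg (3.22%) and for 1 gene at 162 µg (Dusp1, 4.77%). The rule of choice used these contrasts, so nothing is read from the counts. Replicate 5 of the 162 µg group was the lowest mouse of its group for Nr4a1, Egr1, Junb, Atf3, Egr2 and Dusp1. Without it 3 of the 10 genes were called, and 1 was called at 54 µg without replicate 2 of that group. Leaving out a mouse that is low for these genes raises the difference by itself. The share of all genes called in these 2 fits is not given, so nothing is read from these calls either.

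After NRCWE-001 on day 1 the differences were smaller at the lower doses. The median over the 10 genes was 0.09 at 18 µg, 0.19 at 54 µg and 0.51 at 162 µg, whereas it was 0.48, 0.52 and 0.44 for NRCWE-002. Over all genes the median was between -0.01 and 0.02 in the 12 comparisons with vehicle. After 18 µg of NRCWE-001 Dusp1 had the largest difference of the 10 genes, with values of 1.92, 0.61, 2.12, 2.74 and 1.39 and a difference of 1.06 ± 0.39, while the others gave -0.19 to 0.45. At 162 µg Egr1 differed by 1.21 ± 0.36, Dusp1 by 0.92 ± 0.39, Nr4a1 by 0.87 ± 0.41, Fos by 0.86 ± 0.31 and Junb by 0.68 ± 0.19. For these 5 genes 3 or 4 of 5 mice lay above all vehicle mice. Of the 10 genes 0 were called at any dose of NRCWE-001 on day 1, where 0%, 0% and 0.624% of all genes were called, and 1, 0 and 5 had an unadjusted p under 0.05 in limma (5.28%, 4.99% and 7.32% of all genes).

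Jun was more often below than above its vehicle mice on day 1. It measured 1.02 to 1.22 in the vehicle mice, and 16 of 30 exposed mice were below that range while 4 were above it. Its differences from vehicle were -0.23 to 0.02 over the 6 groups. The vehicle mice of day 1 were close together for Jun, with an SD of 0.09, whereas the SD between mice of a group was 0.24. Mice leave so narrow a range easily. The share of all genes is not given for counts below the range, so nothing is read from the count of Jun. Over the same 30 exposed mice Dusp1 was above all 5 vehicle mice in 27, Ier2 in 22, Fos in 21, Atf3 and Nr4a1 in 19, Egr1 in 17, Junb in 16, Egr2 in 14 and Fosb in 4. The median over all genes was 5 of 30, and 0.130% of genes reached the count of Dusp1. A narrow vehicle range raises such counts. The SD of the vehicle mice of day 1 was 0.09 for Ier2, 0.12 for Atf3 and 0.30 for Dusp1. Between mice of a group it was 0.29, 0.32 and 0.64. The vehicle SD was also smaller for Fos, Junb and Egr2. It was similar for Nr4a1 (0.64 and 0.67), Egr1 (0.58 and 0.59) and Fosb (0.27 and 0.26).

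Vehicle and exposed mice of day 1 shared some slides, which allows a comparison inside a slide. For NRCWE-002 the shared slides were 8 and 18, and 8 to 10 of the 10 genes were higher in the exposed mouse in each of the 6 pairs, with medians of 0.41 to 1.07. Dusp1 was higher in all 6 of these pairs, by 0.66 to 2.13. Each shared slide held 1 vehicle mouse, which was set against every dose, so the pairs of a slide are not independent. It was replicate 4 on slide 8 and replicate 5 on slide 18. Replicate 5 was the lowest vehicle mouse of day 1 for Fos (-2.53) and Egr1 (-3.33). For NRCWE-001 the shared slides were 1, 3 and 5, and the pairs were mixed, from 0 of 10 genes higher (54 µg on slide 5, median -0.25) to 9 of 10 (54 µg on slide 3, median 0.49).

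Among the groups of day 28, the median difference of the 10 genes from vehicle was largest at 162 µg of NRCWE-001. All 10 genes had a higher mean than in the vehicle mice there, beside 50.8% of all genes, and the median was 0.74. Of the 120 differences between an exposed and a vehicle group, 2 were called by limma at an adjusted p under 0.05, those of Nr4a1 and Atf3 in this group. They were 2 of 9 genes called in this comparison, or 0.0511% of all genes.

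Nr4a1 measured -1.04, -0.63, 0.69 and -0.34 in the 4 vehicle mice of day 28. It measured 0.91, 1.56, 2.40, 2.03 and 1.81 at 162 µg of NRCWE-001. The groups did not overlap, and the difference was 2.07 ± 0.44 (SE, n = 5 against 4), or 4.20-fold. At 18 µg of the same particle the values were -0.00, -0.93, 1.12, -0.40 and -0.17, and at 54 µg they were -0.18, 0.15, 0.36, -0.07 and -0.10, with differences of 0.25 ± 0.44 and 0.36 ± 0.44, or 0.14 ± 0.50 and 0.32 ± 0.50 without slides 4 and 6. At these lower doses the mice overlapped the vehicle mice.

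Atf3, an inducible repressor of the ATF/CREB family, measured -1.19, -1.07, -0.64 and -0.85 in the vehicle mice. At 162 µg of NRCWE-001 it measured 0.35, -0.78, 0.05, 0.23 and 0.79. In 4 of 5 mice it was above all vehicle mice, and replicate 2 was within their range. The difference was 1.06 ± 0.21, or 2.09-fold.

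Both calls depended on the arrays and terms in the fit. With slide as a fixed block the differences were 2.02 ± 0.55 for Nr4a1 and 1.08 ± 0.26 for Atf3, and 0 genes of the 17627 were called. Slide 6 was the only slide shared by this group and vehicle mice, and on it the exposed mouse was higher by 1.54 for Nr4a1 and by 1.42 for Atf3. Without the arrays of slides 4 and 6 the differences were 2.18 ± 0.50 and 0.96 ± 0.23, and neither was called. Leaving out 1 array at a time, Nr4a1 was no longer called without vehicle replicate 1 (1.84), 2 (1.97) or 4 (2.07) or exposed replicate 4 (2.00) or 5 (2.06). Atf3 was no longer called without vehicle replicate 1 (0.98), 2 (1.02) or 4 (1.09) or exposed replicate 1 (1.00), 4 (1.04) or 5 (0.90). The sizes stayed at 1.84 to 2.41 and at 0.90 to 1.29.

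The other 8 genes at 162 µg of NRCWE-001 on day 28 were not called. Egr1 measured -2.23, -0.78, -0.23, -1.62 and -1.86, against -3.57, -2.44, -2.07 and -2.56 in the vehicle mice, a difference of 1.32 ± 0.38 with 4 of 5 mice above all vehicle mice. Egr2, which is induced beside Egr1, measured -0.26, -0.28, -0.05, 0.23 and 0.25 against -1.02, -1.18, -0.35 and -0.41. It did not overlap, and its difference was 0.72 ± 0.23. Fosb did not overlap either, although its difference was only 0.32 ± 0.17. With Nr4a1, 3 of the 10 genes did not overlap, beside 2.06% of all genes. Fos differed by 0.77 ± 0.33, Dusp1 by 0.88 ± 0.42 and Junb by 0.60 ± 0.20. Jun and Ier2 differed by 0.04 ± 0.16 and 0.19 ± 0.19. Without slides 4 and 6 the differences were 1.61 ± 0.40 for Egr1, 0.63 ± 0.20 for Egr2, 0.26 ± 0.15 for Fosb and 0.91 ± 0.34 for Fos. With an unadjusted p under 0.05 there were 7 of 10 genes, beside 7.34% of all genes.

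**Figure D2:**
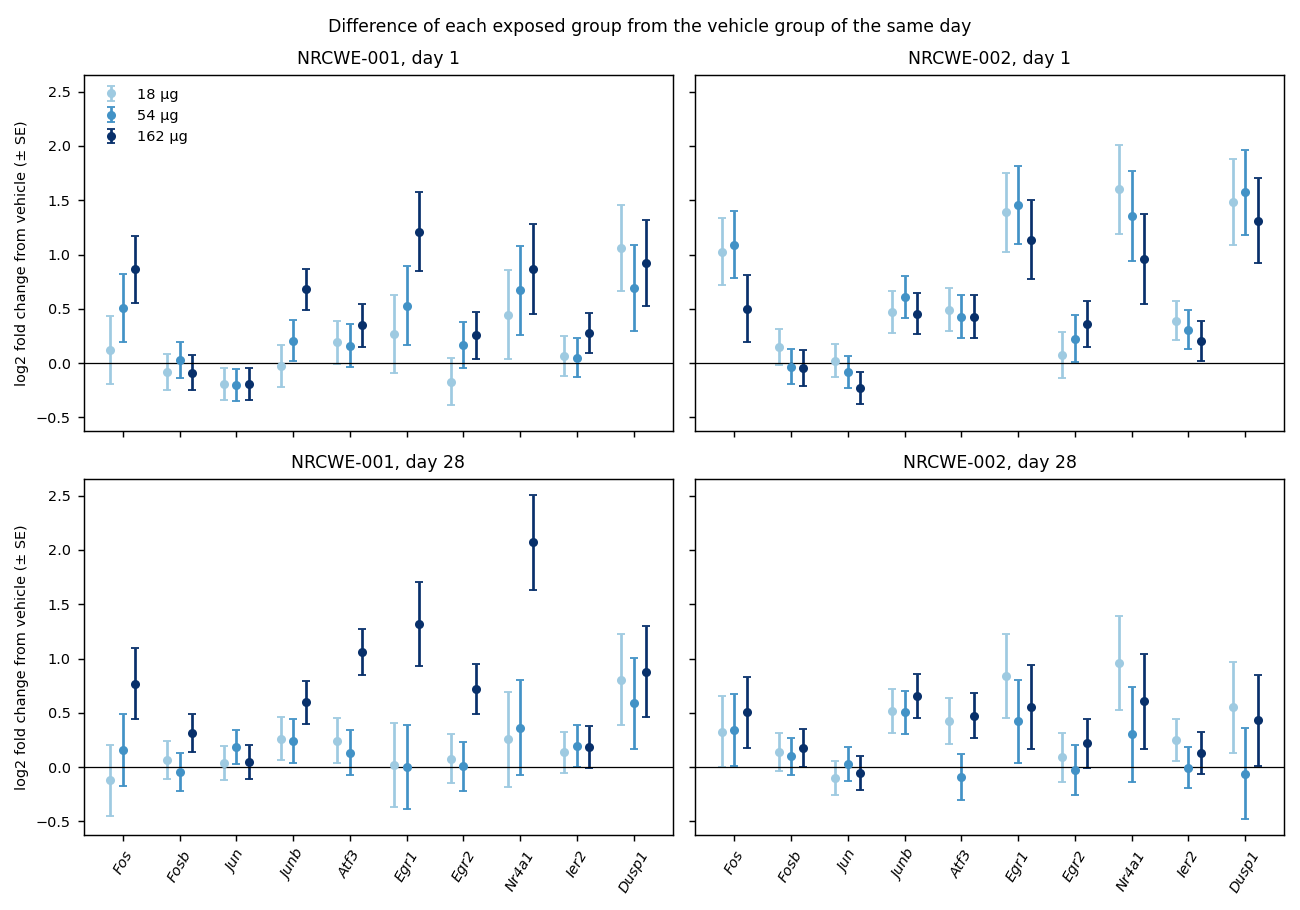
Difference of each exposed group from the vehicle group of the same day in log2 units, for the 10 genes (horizontal axis), by particle and day (panels) and dose (symbols), with error bars of 1 SE. Nr4a1 at 162 µg of NRCWE-001 on day 28 is the highest point at 2.07, and Jun stays between -0.23 and 0.19 in all panels.

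The median differences after NRCWE-002 on day 28 were smaller than that at 162 µg of NRCWE-001, and Junb was the gene that stood out most often. Junb measured -0.94, -1.12, -0.77 and -0.56 in the vehicle mice. Its differences were 0.51 ± 0.20, 0.50 ± 0.20 and 0.66 ± 0.20 at 18, 54 and 162 µg of NRCWE-002, and at 54 µg its 5 mice (-0.26, -0.52, -0.45, -0.28 and -0.20) lay above all vehicle mice. It was the 1 gene of the 10 without overlap in that comparison, beside 1.41% of all genes. Without slide 4 the differences of Junb were 0.38 ± 0.21, 0.55 ± 0.21 and 0.61 ± 0.21. Over both particles 19 of 30 exposed mice of day 28 had more Junb than every vehicle mouse, against a median of 5 over all genes, and 2.27% of genes reached that count. The counts for Atf3 and Egr1 were 14 each, those for Nr4a1, Fosb and Egr2 were 10 each, and those for Jun, Fos, Ier2 and Dusp1 were 6, 5, 5 and 3.

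On day 28 after 18 µg of NRCWE-002, Nr4a1 differed by 0.96 ± 0.44 and Egr1 by 0.84 ± 0.38. Without slide 4 these values were 0.87 ± 0.46 and 0.94 ± 0.37. The median over the 10 genes was 0.38 at 18 µg, 0.06 at 54 µg and 0.45 at 162 µg, and without slide 4 it was 0.30, 0.13 and 0.48. On slide 4 Fos and Egr1 were the lowest of their groups at 54 and 162 µg, so that their differences were larger without it. Fos then differed by 0.65 ± 0.30 and 0.80 ± 0.30 in place of 0.34 ± 0.33 and 0.50 ± 0.33, and Egr1 by 0.73 ± 0.37 and 0.86 ± 0.37 in place of 0.42 ± 0.38 and 0.56 ± 0.38. Of the 10 genes 0 were called at the 3 doses, where 0%, 0% and 0.00567% of all genes were called, and 4, 1 and 2 had an unadjusted p under 0.05 in limma (6.49%, 4.98% and 7.27% of all genes). Slides 2 and 9 each held 1 vehicle mouse, which was set against every dose. On slide 2 it was replicate 1, the lowest vehicle mouse of day 28 for Fos, Egr1 and Dusp1. There 9, 9 and 10 of the 10 genes were higher in the exposed mouse at 18, 54 and 162 µg. The medians were 0.92, 0.55 and 0.50. On slide 9 the counts were lower, at 8, 6 and 7, with medians of 0.33, 0.03 and 0.16.

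Dusp1 showed a wide spread among the vehicle mice of day 28, from 0.10 to 2.68, so that its exposed mice of that day rarely left the range. The values of vehicle replicate 1 were the lowest of all 69 arrays for Fos (-3.09), Egr1 (-3.57) and Dusp1 (0.10). Without that mouse the median difference of the 10 genes at 162 µg of NRCWE-002 on day 28 was 0.13 in place of 0.45. At 18 and 54 µg of NRCWE-001 on day 28 the median was 0.11 and 0.17 (0.11 and 0.15 without slides 4 and 6), with 0 of 10 genes called (0.193% and 0.00567% of all genes) and 0 of 10 at an unadjusted p under 0.05 in limma (6.62% and 2.58%). On slide 6 7 of 10 genes were higher in the exposed mouse at both doses, and on slide 7 2 of 10 were.

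The charged particle was set against the uncharged particle in 8 comparisons, at each dose of each day and as the mean of the doses. The 10 genes gave 0 calls in all 8. Of all genes 0.00567%, 0.0964% and 0% were called at 18, 54 and 162 µg and 0.108% over the mean of the doses on day 1, and 0.165%, 0.0284%, 0% and 6.73% on day 28. With an unadjusted p under 0.05 in limma there were 4, 3 and 0 of 10 genes at 18, 54 and 162 µg and 5 over the mean of the doses on day 1 (7.65%, 6.18%, 1.53% and 8.87% of all genes), and 1, 0, 4 and 0 on day 28 (10.3%, 8.44%, 8.97% and 23.3%). On day 1 the 10 genes were all higher after NRCWE-002 at 18 µg, beside 51.7% of all genes, with a median of 0.38. Nr4a1 differed by 1.16 (95% interval 0.33 to 1.98), Egr1 by 1.12 (0.40 to 1.85), Fos by 0.91 (0.28 to 1.53) and Junb by 0.50 (0.12 to 0.88). With slide as a block the value for Nr4a1 was 0.71 ± 0.52 and that of Dusp1 -0.01 ± 0.47 in place of 0.43 ± 0.39. At 54 µg Egr1 differed by 0.93 (0.20 to 1.65), Dusp1 by 0.88 (0.09 to 1.67), Nr4a1 by 0.69 (-0.14 to 1.51) and Fos by 0.58 (-0.04 to 1.21). At 162 µg the particles lay close, with a median of 0.00 and 5 of 10 genes higher (52.5% of all genes), and the interval for Nr4a1 ran from -0.73 to 0.92. Over the mean of the doses the 10 genes were all higher after NRCWE-002 on day 1, beside 50.3% of all genes, led by Egr1 with 0.66 ± 0.21, Nr4a1 with 0.64 ± 0.24 and Dusp1 with 0.57 ± 0.23.

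On day 28 most of the 10 genes were lower after NRCWE-002 at the highest dose, where the particles had lain close on day 1. At 162 µg 9 of the 10 genes were lower after NRCWE-002 than after NRCWE-001, with Junb as the exception at 0.06 ± 0.19, and 46.1% of all genes had a higher mean after NRCWE-002. Nr4a1 was lower by 1.46 ± 0.41 (95% interval of the difference -2.29 to -0.64), with 5 of 5 mice given NRCWE-002 (0.88, -0.22, 0.41, -0.28 and 0.61) below the lowest mouse given NRCWE-001 (0.91), although the nearest mice of both groups were close. In this comparison 0.794% of all genes did not overlap. Egr1 was lower by 0.76 ± 0.36, Atf3 by 0.59 ± 0.20 and Egr2 by 0.50 ± 0.21. Without slide 4 the differences were -1.34 ± 0.44 for Nr4a1, -0.46 ± 0.35 for Egr1, -0.72 ± 0.20 for Atf3 and -0.36 ± 0.20 for Egr2, and 3 of 10 genes were higher after NRCWE-002. Without slides 4 and 6 they were -1.55 ± 0.47, -0.68 ± 0.37, -0.66 ± 0.21 and -0.42 ± 0.19, and 0 of 10 were higher. The median over the 10 genes was -0.36, and -0.24 and -0.20 without these arrays. At 18 µg 8 of 10 genes were higher after NRCWE-002, beside 47.4% of all genes, led by Egr1 with 0.82 (0.09 to 1.54), and at 54 µg 4 of 10 were, beside 47.7%. Without slide 4 these counts were 6 and 6, and without slides 4 and 6 they were 7 and 6.

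The 2 days were compared in the vehicle mice and in the effect of 162 µg. Between the vehicle groups the 10 genes had a median difference of 0.04, and Dusp1 differed most, by 0.62 ± 0.42, or by 0.04 ± 0.61 with slide as a block. Without slides 4 and 6 the median was 0.01 and the value of Dusp1 0.60 ± 0.45. The effect of 162 µg of NRCWE-001 was larger on day 28 than on day 1 by 1.21 ± 0.60 for Nr4a1 and by 0.71 ± 0.29 for Atf3, and by 1.31 ± 0.65 and 0.61 ± 0.30 without slides 4 and 6. For NRCWE-002 the same difference was -0.88 ± 0.57 for Dusp1 and -0.58 ± 0.53 for Egr1, and -0.52 ± 0.56 and -0.28 ± 0.50 without slide 4. None of the 10 genes was called in these 3 comparisons, where 0% of all genes were called, and 0, 2 and 0 genes had an unadjusted p under 0.05 in limma (5.04%, 3.85% and 6.7% of all genes).

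Nr4a1, Egr1, Fos and Dusp1 varied together from mouse to mouse. After the 14 group means had been removed, the Pearson correlation over the 69 arrays was 0.81 between Nr4a1 and Egr1, 0.81 between Nr4a1 and Dusp1, 0.79 between Fos and Egr1, 0.72 between Fos and Nr4a1, 0.69 between Fos and Dusp1 and 0.66 between Egr1 and Dusp1. Of the genes with a promoter entry, Nr4a1, Dusp1, Fos and Egr2 held 2 or more half-sites of the cyclic AMP response element. Egr2 did not belong to this set, and Egr1 had no promoter entry. The half-site was searched for after the sequences had been seen, and a link between half-sites and correlation was not tested. The 69 points share slides and the same reference RNA, and no p is given. After slide had been removed as well, the 6 correlations were 0.68 to 0.87, and without slide 4 they were 0.62 to 0.84.

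How the other 6 genes went with these 4 depended on the slides. Before slide was removed, the median over the 45 pairs of genes was 0.34 and 37 pairs were above 0. With slide removed as well, which left 38 degrees of freedom, the median was 0.54 and 44 pairs were above 0, and 9 pairs turned sign. Ier2 correlated with the 4 genes at 0.15 to 0.39 before and at 0.71 to 0.85 after slide was removed, that is, within the range of the 4 genes among themselves. Fosb went from -0.19 to 0.02 before to 0.50 to 0.68 after, and Atf3 from 0.21 to 0.54 before to 0.54 to 0.74 after. The values were 0.27 to 0.56 and 0.40 to 0.74 for Junb, 0.37 to 0.65 and 0.25 to 0.62 for Jun, and 0.27 to 0.51 and 0.24 to 0.45 for Egr2. The lowest pair, Egr2 with Ier2, was at -0.47 before and at 0.20 after. Without slide 4, but with slide not removed, Ier2 went with the 4 genes at 0.44 to 0.52 and Fosb at 0.02 to 0.15.

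Against the mean of the 10 scaled genes, which holds the gene itself, Nr4a1 correlated at 0.92, Fos at 0.80, Dusp1 at 0.79, Egr1 at 0.78, Junb at 0.69, Atf3 at 0.62, Jun at 0.49, Ier2 at 0.48, Egr2 at 0.40 and Fosb at 0.20. After slide was removed Nr4a1 was at 0.93, Ier2 and Fos at 0.89, Egr1 at 0.87, Dusp1 at 0.83, Atf3 at 0.77, Junb at 0.75, Fosb at 0.68, Egr2 at 0.52 and Jun at 0.47. Nr4a1 thus had the highest value both ways.

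**Figure D3:**
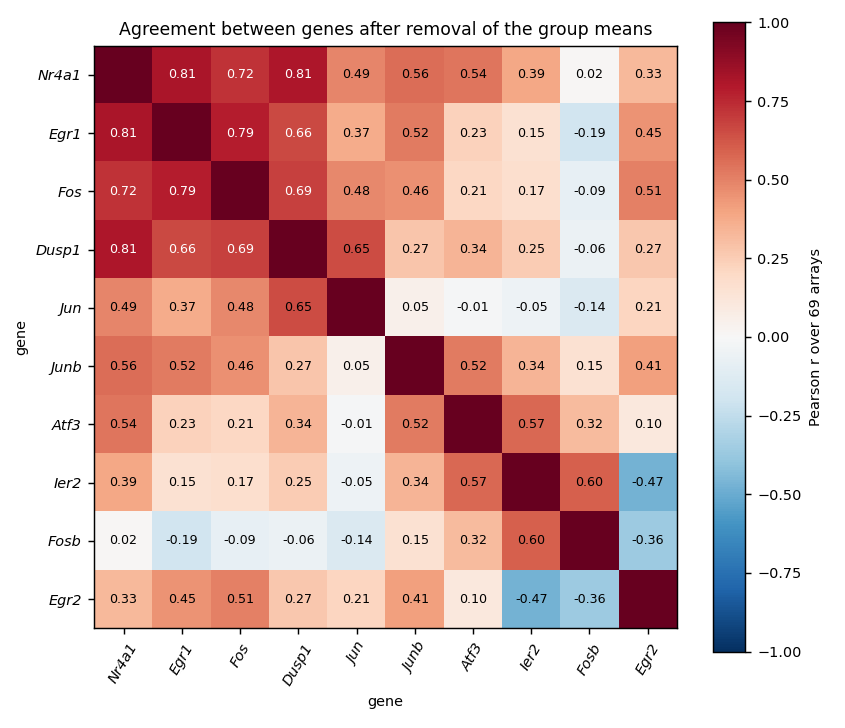
Pearson correlation between the 10 genes over 69 arrays after removal of the 14 group means, with the genes on both axes and the value in colour and print. Nr4a1, Egr1, Fos and Dusp1 form a block of 0.66 to 0.81, and Egr2 with Ier2 is the lowest pair at -0.47, which became 0.20 once slide was removed.

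**Figure D4:**
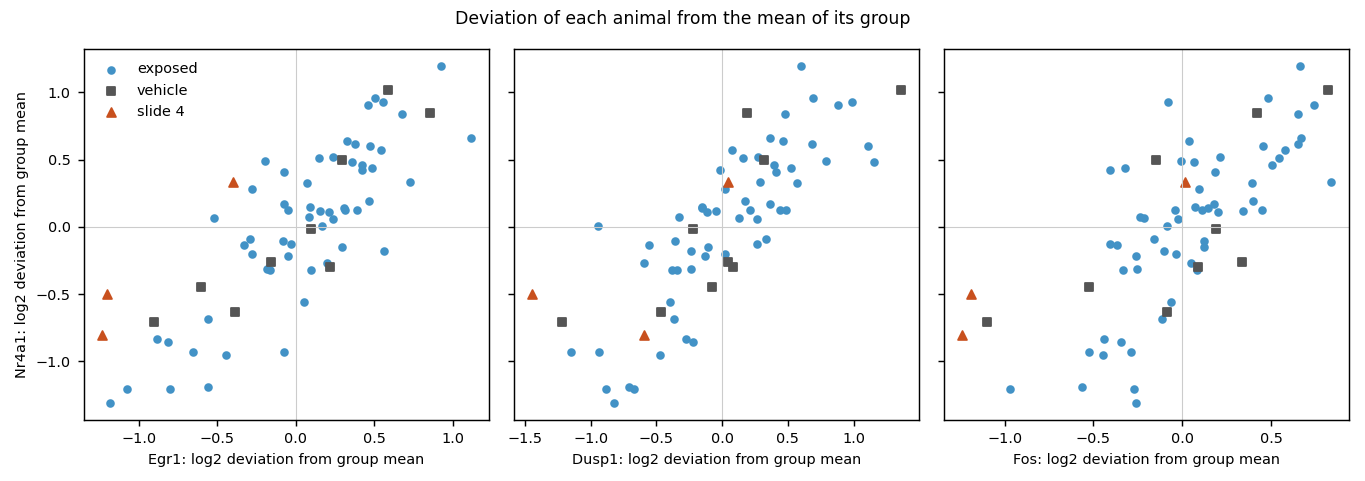
Deviation of each of the 69 mice from the mean of its group in log2 units, with Nr4a1 on the vertical axis and Egr1, Fos and Dusp1 on the horizontal axes. Mice that were high for Nr4a1 within their group were also high for the other 3 genes, with correlations of 0.81, 0.72 and 0.81.

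The 8 genes outside the list whose deviations followed the mean of the 10 genes most closely over the 69 arrays were Zfp36 (0.76), Ccn1 (0.69), Btg2 (0.68), Ddit4 (0.58), Nr4a2 (0.58), Cebpd (0.57), Nfkbia (0.56) and Rhob (0.56). Zfp36 encodes an mRNA-destabilising protein, Btg2 an antiproliferative factor and Nfkbia the inhibitor of NF-kB. All but Ddit4 were in the list of other immediate early and feedback genes written for this comparison. Without slide 4 these correlations were 0.56 to 0.75, and after slide was removed they were 0.59 to 0.89, with Zfp36 the highest.

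That wider list held 53 genes, of which 48 were tested and Egr4, Nr4a3, Npas4, Dusp5 and Elk1 were not. It comprised 17 tested transcription factors, 16 feedback regulators, 5 upstream regulators and 10 secreted and other early products. Over the 6 comparisons of day 1 with vehicle, 2 calls were made and both were feedback regulators. Socs3, an inhibitor of cytokine receptor signalling, rose by 0.67 ± 0.15 at 162 µg of NRCWE-001 (limma adjusted p = 0.0136, and 0.000962 to 0.0297 over 11 alternatives). It measured -0.80 to -0.62 in the vehicle mice and -0.40 to 0.48 in the exposed mice, so that 5 of 5 were above all vehicle mice. Socs3 was not called without exposed replicate 3 or 4 or vehicle replicate 4, with differences of 0.54 to 0.76 over the 10 fits without 1 array. Nfkbia rose by 0.67 ± 0.17 at 162 µg of NRCWE-002 (limma adjusted p = 0.0483), was called in 5 of 11 alternatives (0.0282 to 0.213) and in 1 of 10 fits without 1 array. The shares of all genes called in these comparisons are those given for the 10 genes.

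On day 28 the wider list gave 4 calls against vehicle, all after NRCWE-001. At 18 µg Srf, the serum response factor, rose by 0.44 ± 0.08 (limma adjusted p = 0.00271, and 4.58e-05 to 0.0335 over 11 alternatives) and was called in 9 of 9 fits without 1 array. Maff, a small MAF factor, rose by 1.02 ± 0.23 (limma adjusted p = 0.0323, and 7.12e-05 to 0.0569), with calls in 10 of 11 alternatives and in 3 of 9 fits without 1 array. Per1, a clock gene induced by cyclic AMP and glucocorticoids, rose by 1.31 ± 0.30 (limma adjusted p = 0.0409, and 0.0112 to 0.140), with calls in 8 of 11 and 2 of 9. Fosl2, a relative of Fos, rose by 0.53 ± 0.11 at 162 µg (limma adjusted p = 0.0357, and 0.0278 to 0.999), with calls in 6 of 11 and 4 of 9. Of the 48 genes 42 had a higher mean at 162 µg of NRCWE-001 on day 28, with a median of 0.21, beside 50.8% of all genes.

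Srf had the lowest adjusted p of the wider list between the particles on day 28. It measured 0.29 to 0.72 at 18 µg, 0.25 to 0.61 at 54 µg and 0.11 to 0.38 at 162 µg of NRCWE-001. It measured -0.24 to 0.09, -0.11 to 0.13 and -0.06 to 0.06 at the same doses of NRCWE-002, and -0.06 to 0.09 in the vehicle mice. On day 1 it was between -0.38 and 0.08 in all groups. Srf was lower after NRCWE-002 by 0.37 ± 0.04 over the mean of the doses (limma adjusted p = 2.12e-07, and 1.92e-07 to 0.0217 over 11 alternatives), and the call held in 30 of 30 fits without 1 array. The differences were -0.45 ± 0.08 at 18 µg (limma adjusted p = 0.000486, and 0.000157 to 0.0359) and -0.40 ± 0.08 at 54 µg (adjusted p = 0.0348, and 0.00133 to 0.125), where it was called in 7 of 11 alternatives and 3 of 10 fits without 1 array.

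Over the mean of the doses on day 28, 11 of the 48 genes of the wider list fell and 1 rose after NRCWE-002 relative to NRCWE-001, beside 6.73% of all genes called. With slide as a block 1 of the 48 was called, and 0.0511% of all genes. Beside Srf, the lowest adjusted p belonged to Nr4a2 (-0.56 ± 0.12, limma adjusted p = 0.00503, and 0.00459 to 0.355 over 11 alternatives), Klf4 (-0.73 ± 0.17, adjusted p = 0.00913, and 0.00889 to 0.30) and Fosl2 (-0.25 ± 0.06, adjusted p = 0.0102, and 0.00981 to 0.846). Nr4a2 is the relative of Nr4a1, and Klf4 is a growth-arrest factor of epithelium and endothelium. At 54 µg Klf4 measured 2.44 to 2.82 after NRCWE-001 and 0.99 to 1.39 after NRCWE-002, a difference of -1.45 ± 0.30 (limma adjusted p = 0.0352, and 0.00844 to 0.117 over 11 alternatives). That call was made in 6 of 11 alternatives and in 0 of 10 fits without 1 array.

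Markers of other cells moved in some of the groups in which the 10 genes differed. Neutrophil markers rose in 2 of 5 genes at 162 µg of NRCWE-001 on day 1 (median change 0.81), where their mean level ran from 2.75 to 4.16 in the exposed mice and from 2.44 to 3.07 in the vehicle mice. Of 3 alveolar macrophage markers 1, Siglecf, was called lower there and at 162 and 54 µg of NRCWE-002 on day 1. The median change over the 3 was -0.59, 0.45 and 0.04 in these comparisons, so the list did not move as 1. Of 3 alveolar type 1 markers 1, Pdpn, was called higher at 162 µg of both particles on day 1. The median change over that list was -0.14 for NRCWE-001 and -0.13 for NRCWE-002, in the other direction. At 162 µg of NRCWE-001 on day 28, 0 of 39 markers were called, and the neutrophil level ran from 2.09 to 3.23 against 2.64 to 2.92. Between the particles over the mean of the doses on day 28, the B cell marker Ms4a1 rose by 0.68 ± 0.18 (limma adjusted p = 0.0176).

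The largest marker differences were those of cardiac muscle and adipocytes, of which 0 genes were called in any comparison. At 162 µg of NRCWE-002 on day 28 the median over 5 cardiac muscle genes was 2.16 above vehicle and that over 3 adipocyte genes 1.33, and at 18 µg they were 1.90 and 1.98. Between the particles at 162 µg on day 28 they were 2.02 and 1.68, where most of the 10 genes were lower after NRCWE-002. The mean cardiac level ran from 2.52 to 4.14 at 162 µg of NRCWE-002, from 0.15 to 3.38 at 162 µg of NRCWE-001 and from 0.58 to 3.21 in the vehicle mice. The adipocyte level ran from 1.35 to 4.43, from -0.04 to 3.00 and from 0.44 to 3.31 in these groups.

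Within groups the correlation of the 13 marker lists with the mean of the 10 genes over the 69 arrays was -0.16 (alveolar type 1) to 0.17 (endothelium), and it was -0.00 for cardiac muscle and -0.04 for adipocytes. After slide was removed the range was -0.25 (alveolar type 1) to 0.24 (neutrophil). The part of cell composition in the differences between groups was not tested.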

How the data were processed

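RNA of 69 mouse lungs was hybridised against a common reference on 2-colour Agilent arrays of 41174 probes. The authors read the arrays with Agilent Feature Extraction 11.0.1.1, and the deposited scanner files hold an intensity per spot and channel with flags. The deposited value table holds log2 ratios that the authors had LOWESS-normalized within each array. The LogRatio in the deposited scanner files is a log10 ratio of red over green and was brought to the log2 scale. Set against the scanner signals the correlation of the value table was 0.994 to 0.999 over spots with a slope of 0.988 to 0.998, so scale and direction (mouse over reference) were settled. No gene centring was seen, and column medians were -0.06 to -0.00. Dyes were not swapped, which leaves ratios to the reference open to dye bias. The number of arrays limits the precision.

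Probe accessions were matched to RefSeq symbols of GRCm38.p6, used for names and promoters alone since the array annotation followed mm9. A total of 27479 probes (66.7%) matched and 13695 did not. Probes well above background in the mouse channel on at least 4 arrays were kept, and a gene was the median over its probes, which gave 17627 genes. The deposited log2 ratios were fitted with limma 3.58.1 in R 4.3.3, as 14 group means over 69 arrays with no covariate, in 23 contrasts with Benjamini-Hochberg adjustment within each and calls at an adjusted p under 0.05. The fit was tested on simulated data. P-values measure the spread between mice of a group, pooled over the 14 groups. Without a slide term that spread holds differences between slides as well. Groups came from the labels. Replicate numbers follow the order of the samples and pair nothing.

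The 10 genes, the wider list and the markers were chosen with earlier results of these data known. All 10 genes are named, of the wider list up to 4 called genes per contrast by smallest adjusted p, and the 8 genes most correlated with the mean of the 10. Alternatives were scanner signals with normexp (offset 50) or without background correction, the LogRatio of the scanner software, median centring, no probe filter, the mean over probes, slide or scan day as a block, and leaving out each array. Leaving out slide 4, or slides 4 and 6, was chosen after seeing the data.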

Additional observations from a re-analysis of the deposited data

Results flagged for a closer look

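Within the 140 combinations of gene and group of 4 or 5 mice, 10 held a mouse far from the others of its group by Dixon's test at the 95% level, which chance does in about 1 of 20 groups. The arrays of slide 4 gave 3 of them, all at 54 µg of NRCWE-002 on day 28 in replicate 2, with Fosb at -1.29, Egr1 at -3.47 and Egr2 at -1.56. Slide 6 gave Egr2 at -1.29 and Ier2 at -0.70 in replicate 1 at 54 µg of NRCWE-001 on day 28. Replicate 5 at 162 µg of NRCWE-002 on day 1 gave Egr1 at -2.77 and Nr4a1 at -1.07, both the lowest of the group. At 18 µg of NRCWE-001 on day 28, Fosb was -2.10 in replicate 2 and Junb was -0.23 in replicate 3. At 18 µg of NRCWE-002 on day 1, Egr2 was -0.89 in replicate 5.

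In 2 cases the mice of both days lay on opposite sides of the mean of their vehicle mice. Fosb at 162 µg of NRCWE-001 was below it in 5 of 5 mice on day 1 and above it in 5 of 5 on day 28, and the effects differed by 0.40 ± 0.24 in the fit. Jun at 54 µg of NRCWE-001 did the same, with effects that differed by 0.39, and that difference was not tested. The exposed Fosb mice of day 1 measured -1.970 to -1.850, inside the vehicle range of -2.102 to -1.534. They lay above the vehicle median of -1.974, so for Fosb the side on day 1 depended on the use of the mean.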

How the results depend on the processing

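The median difference of the 10 genes in the 23 comparisons moved by less than the SD between mice of a group under each alternative run. Slide as a random block was not run for the medians. The 120 differences of single genes from vehicle also moved by less than that SD. This limit is wide, at 0.25 for the medians and 0.24 (Jun) to 0.67 (Nr4a1) for single genes. Small differences could turn sign inside it. Without slide 4, Fosb at 18 µg of NRCWE-002 on day 28 went from 0.14 to -0.09. Ier2 at 162 µg went from 0.13 to -0.03. Leaving out 1 array moved 2 of 281 medians by more than the limit, both without replicate 1 of the vehicle mice of day 28. They were that at 162 µg of NRCWE-002 on day 28 (range 0.13 to 0.63) and that between the vehicle groups (-0.16 to 0.35). The counts of called genes were less stable, and the cause was not tested. Slides 4 and 6 held no mice of day 1, so leaving them out kept the differences of day 1. The medians stayed at 0.51 for 162 µg of NRCWE-001 and at 0.52 and 0.44 for 54 and 162 µg of NRCWE-002. Those arrays enter the estimate of the spread that all groups share, which the calls of day 1 use. At 162 µg of NRCWE-001 on day 28, 0 of the 10 genes were called in place of 2 with the LogRatio of the scanner software, slide as a fixed or random block, scan day as a block or without slides 4 and 6, and 0 to 2 without 1 array. There the wider list gave 0 calls in place of 1 under the same 5 alternatives and 0 to 3 without 1 array, with 3 without vehicle replicate 3, 2 without exposed replicate 2 and 0 without vehicle replicate 1, 2 or 4 or exposed replicate 4 or 5. On day 1 at 162 µg of NRCWE-001 the 10 genes gave 1 call with slide as a fixed block in place of 0. They gave 2 with slide as a random block, with scan day, without slide 4 and without slides 4 and 6. With slide as a fixed block 4.11% of all genes were called there, in place of 0.624%. The share of all genes is not given here for the other alternatives, so nothing is read from these counts. The wider list gave 2 with either slide block or scan day in place of 1, and 0 to 1 without 1 array. For 54 µg of NRCWE-002 on day 1 the count of the 10 genes was 1 with slide as a fixed block in place of 0. With that block 1.51% of all genes were called, in place of 0.113%. The count was 4 with slide as a random block, 2 without slide 4, 1 without slides 4 and 6, and 0 to 1 without 1 array. The wider list gave 1 there without background correction, 2 with slide as a random block, 1 with scan day and 1 without slide 4 in place of 0, and 0 to 1 without 1 array (1 without replicate 2). For 162 µg of NRCWE-002 on day 1 the 10 genes gave 1 with slide as a random block and 2 without slides 4 and 6 in place of 0, and 0 to 3 without 1 array. The wider list gave 2 with normexp, 3 without background correction, 0 with LogRatio, 0 with median centring, 0 without the probe filter, 2 with the mean over probes, 0 and 2 with slide as a fixed and a random block, 4 with scan day, 3 without slide 4 and 4 without slides 4 and 6 in place of 1. Without 1 array it gave 0 to 3, with 3 without exposed replicate 5 and 0 without any vehicle array or exposed replicate 2, 3 or 4. At 18 µg of NRCWE-001 on day 28 the wider list gave 1 with LogRatio in place of 3, and 1 to 3 without 1 array, with 1 without vehicle replicate 1 or 2 or exposed replicate 2, 3 or 5. At 54 µg it gave 1 with slide as a fixed or random block in place of 0. No paired analysis was possible because the replicate numbers follow the order of the samples and the labels tie no mice of different groups together. Mice could be matched by shared slide alone, as given above for the slides that held vehicle and exposed mice. Leaving out slides was chosen after seeing the data.

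With 4 or 5 mice per group, the SE of a difference from vehicle was 0.41 to 0.44 for Nr4a1 and 0.15 to 0.16 for Jun, so a difference that could be seen in Jun could be missed in Nr4a1. Slides 4 and 6 held mice of day 28 alone, and most slides held mice of few groups, which limits the comparisons inside a slide. The number of arrays and the flags of the scanner software, not a read depth, set the precision. The 10 genes were well above background on 69 of 69 arrays, with Fosb the nearest to it.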
